A study of Rattus norvegicus with 18 samples.

Results

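The mitochondrial genome transcripts were examined in the livers of male rats of 18 weeks. They were taken as every row of the deposited gene table whose chromosome is MT, which gave 37 of 33657 genes: 13 protein-coding genes, 2 rRNA genes and 22 tRNA genes. The study had 18 libraries in 6 groups of 3. The normal control was healthy and the obese control was obese, and both were given water per the labels. The other 4 groups were obese animals. An orlistat group served as the positive control (orlistat is a lipase inhibitor used against obesity), and the plantain groups received 1 of 3 doses, called low, medium and high. Strain, the way obesity was induced, dose amounts and duration of treatment were not stated in the labels. Nor do the labels tie each library to an animal of its own, so the p-values rest on the spread among libraries of a group, part of which may be technical.

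Mitochondria carry their own small circular genome, which is transcribed from both strands as long precursors. In the precursors, tRNAs lie between most of the other genes, and cutting them out releases the mRNAs and rRNAs. The proteins it encodes are core subunits of 4 of the complexes of oxidative phosphorylation: ND1 to ND6 and ND4L of complex I (NADH dehydrogenase), CYTB of complex III, COX1, COX2 and COX3 of complex IV (cytochrome c oxidase), and ATP6 and ATP8 of complex V (ATP synthase). All other subunits, the RNA polymerase and the RNA-binding factors of mitochondria come from nuclear genes. Liver is rich in mitochondria, which carry out fatty acid oxidation and parts of the urea cycle there.

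On the file's coordinates (build not named), the members lie on MT from position 1 to 15415. ND6 is the only protein-coding gene on the minus strand, at 13543 to 14061, and the 12 others and both rRNA genes are on the plus strand. The rRNA gene AY172581.9 spans 68 to 1025 and the rRNA gene AY172581.24 spans 1094 to 2664. The file names rRNA and tRNA genes by clone only, so no amino acid is given for a tRNA here. Some coding genes overlap: ATP8 and ATP6 share 43 bases, ND4L and ND4 share 7, ATP6 and COX3 share 1, and ND5 and ND6 share 23 on opposite strands. The sources used here give neither the counting of reads in these stretches nor the strand setting, so the values of these genes are uncertain to that extent. Reads from nuclear copies of mitochondrial sequence cannot be told apart from this table.

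The depth ran from 16.6 to 26.2 M (mega) recovered reads per library. All 10 hepatocyte markers were present, with a summed level of 79499 to 98880 FPKM (fragments per kilobase of gene, scaled to library size). The heart and skeletal muscle markers were at or near 0, with a summed level of at most 0.227 FPKM over 8 genes and Actc1, Myl2 and Ckm at 0 in every library. Of the fat cell markers, Ucp1 and Lep were at 0 in every library, but others were detected. The 5 fat cell genes summed to 4.09 to 5.63 FPKM in the normal control and 11.4 to 12.4 FPKM at the low dose. In the other groups the sum was 4.44 to 9.92 FPKM. The deposited FPKM carry a further factor per library of 0.966 to 1.05, which differed between groups: 0.971 to 0.980 in the obese control, 1.03 at the high dose and 1.02 to 1.05 with orlistat. It was 0.998 to 1.02 in the normal control and at the medium dose, and 0.966 to 0.986 at the low dose. It multiplies the recovered total as library size, so a factor below 1 raises the FPKM and one above 1 lowers them. The factor thus adds to any difference by which the obese control lies above the high dose, orlistat, the medium dose or the normal control.

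The protein-coding transcripts made up nearly all of the mitochondrial reads. They held 99.5% of the mitochondrial reads over the 18 libraries, the rRNAs 0.369% and the tRNAs 0.0852%. These are shares of the reads in the libraries, which also depend on how the libraries were made. They do not give the amounts of the 3 classes of RNA in the liver. Per length, COX1 was the highest, with a mean of 17122 FPKM over all libraries, which placed it at rank 2 among the 33657 genes. ATP6 followed at rank 4 with 11898 FPKM, COX3 at rank 7 with 9566 FPKM, CYTB at rank 10 with 6537 FPKM, ND1 at rank 15 with 4784 FPKM and ND2 at rank 21 with 4235 FPKM. ND4L (rank 29), ND3 (rank 49), ND5 (rank 57), ND6 (rank 75) and COX2 (rank 79) lay between 885 and 2530 FPKM. ND4 (rank 187) stood at 356 FPKM and ATP8 (rank 1066) at 53.7 FPKM. Neighbours on the genome could differ widely per length: in the obese control the ratio of ATP8 to the overlapping ATP6 was 0.00435 ± 0.000178, that of ND4 to the overlapping ND4L was 0.153 ± 0.0234, and that of COX2 to COX1 was 0.0548 ± 0.00474 (mean ± SD, n = 3). Both rRNAs lay between ATP8 and ND4, at 93.9 FPKM for AY172581.9 and 92.4 FPKM for AY172581.24 as means over 18 libraries.

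**Figure D1:**
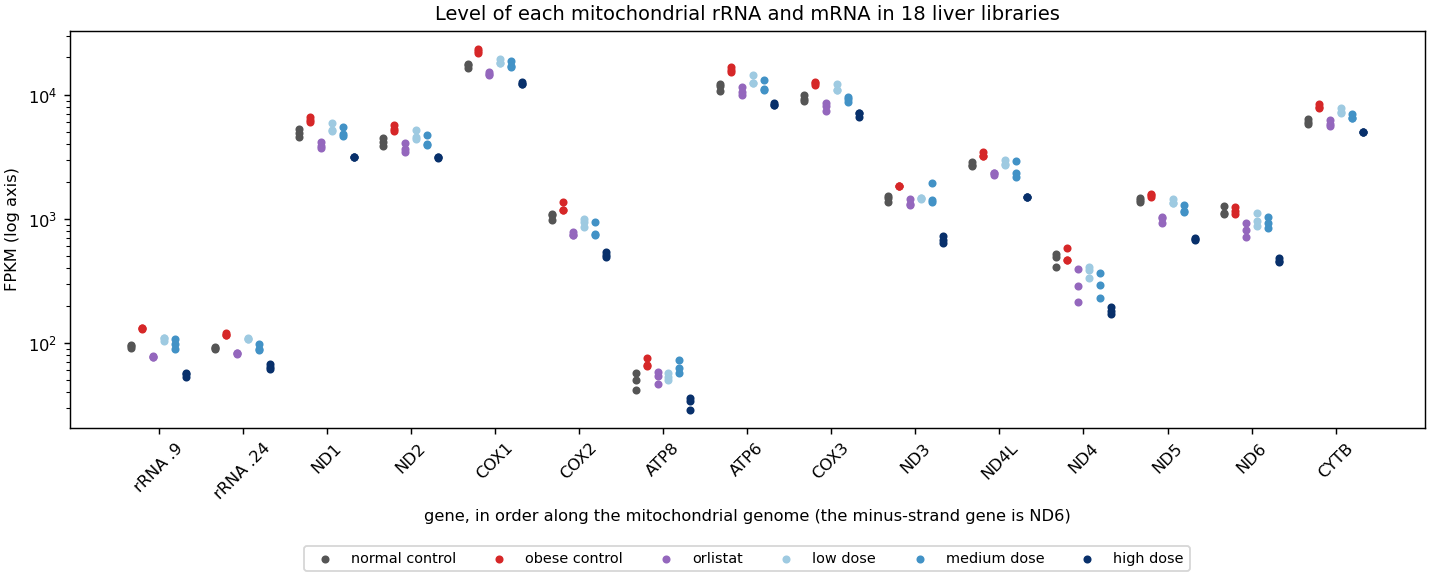
Level of each mitochondrial rRNA and mRNA in FPKM (log axis) in the 18 libraries, with genes in genome order and 1 point per library coloured by group. For all 15 genes the obese control has the highest group mean and the high dose the lowest; COX1 lies between 12149 and 23301 FPKM and ATP8 between 29.0 and 75.9 FPKM.

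Reads of tRNA genes were few and came from a small number of genes. The 8 tRNA genes on the minus strand held 20525 reads over all libraries, 97.4% of the tRNA reads, and the 14 on the plus strand held 553. The 5 tRNA genes with at least 10 reads in every library were all on the minus strand: AY172581.2 (15348 to 15415), AY172581.18 (5081 to 5152), AY172581.10 (5185 to 5252), AY172581.7 (5256 to 5321) and AY172581.20 (14062 to 14130). AY172581.2, which lies beyond CYTB, was the highest of them with a mean of 398 FPKM. AY172581.18, AY172581.10 and AY172581.7 lie side by side between ND2 and COX1, and AY172581.20 lies next to ND6 on the same strand. Of the other tRNA genes, AY172581.13 had no read in any library and 13 of the 22 never reached 10 reads.

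The share of the library taken by mitochondrial transcripts was highest in the obese control and lowest at the high dose of plantain. In percent of recovered reads, the 3 libraries stood at 6.20, 6.65 and 6.49% for normal control livers (6.45 ± 0.230%; mean ± SD, n = 3) and at 8.09, 8.38 and 7.86% in the obese control (8.11 ± 0.259%). With orlistat the share was 5.72, 5.97 and 5.50% (5.73 ± 0.233%). With plantain it was 6.73, 7.30 and 6.73% at the low dose (6.92 ± 0.328%), 6.95, 6.26 and 6.36% at the medium dose (6.52 ± 0.370%), and 4.59, 4.62 and 4.70% at the high dose (4.64 ± 0.0595%). Every library of the obese control lay above every library of the 5 other groups, and every library of the high dose lay below all of them. COX1 alone took 3.40 ± 0.103% of the reads in the obese control and 1.95 ± 0.0333% at the high dose.

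**Figure D2:**
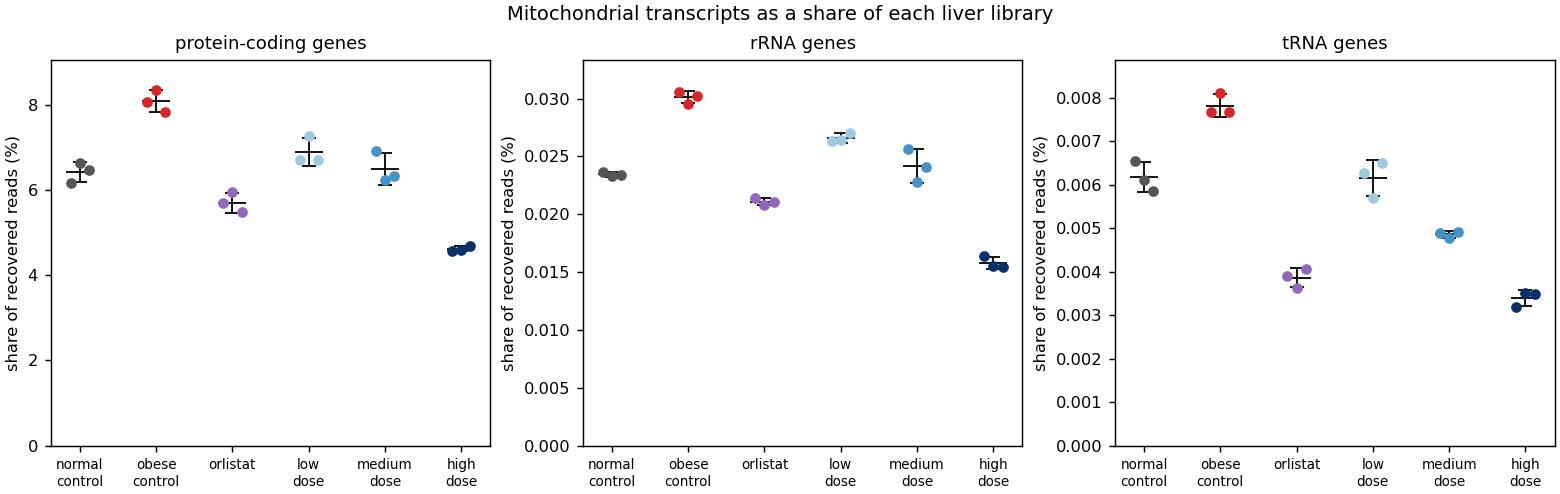
Mitochondrial mRNAs, rRNAs and tRNAs as a share of the recovered reads of each library (%), by group; points are libraries and the bars are the mean ± SD of 3. In all 3 panels the obese control is the highest group, and the high dose is the lowest at 4.62% for mRNAs, 0.0158% for rRNAs and 0.00339% for tRNAs.

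The share was 1.67 percentage points higher in the obese control than in the normal control (ratio 1.26). Against the obese control it was 2.39 points lower with orlistat (difference -2.39, ratio 0.706), and lower by -1.19, -1.59 and -3.48 points at the low, medium and high dose (ratios 0.853, 0.804 and 0.571). Against the normal control the high dose differed by -1.81 points, orlistat by -0.718 points and the low dose by 0.475 points. None of these groups overlapped, and each exact permutation test gave the smallest two-sided p that 3 against 3 libraries allow, 0.1 (0.1125 after Benjamini-Hochberg adjustment over 9 pairs), so no pair passed 0.05. The medium dose and the normal control overlapped, with a difference of 0.0793 points (exact two-sided p = 0.8). Over the obese control and the 3 doses taken as equal steps, the share fell by 1.08 points per step (exact permutation test over 369600 arrangements of 12 libraries, two-sided p = 1.62e-05). The low and the medium dose overlapped. The trend test permutes all 12 libraries, so the obese control and the high dose can carry it, and it does not show a fall at each step. The rRNA share had a slope of -0.00454 points per step and the tRNA share one of -0.00146 points (exact p = 5.41e-06 for each). In bulk tissue, less mitochondrial RNA per cell, fewer mitochondria and a change in the other RNAs of the library cannot be told apart.

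Mitochondrial transcripts were higher in the livers of the obese control than in those of the normal control. Groups were compared by limma on log2(FPKM + 1), with p-values adjusted over the 11945 genes that had at least 1 FPKM in at least 3 libraries. All 13 mRNAs and both rRNAs passed that filter, and 14 of the 22 tRNAs did, 3 of these 14 only with the group where they were highest, so that the tRNA counts are a description. Of the 13 mRNAs, 11 were called higher and 0 lower (10 higher and 0 lower by limma voom; 11 and 0 at an unadjusted p under 0.05), beside 26.7% of all genes tested called higher and 28.4% called lower. The median difference of the mRNAs was 0.35 on the log2 scale, while that of all genes was 0.00.

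COX1, the catalytic subunit of cytochrome c oxidase, stood at 16438, 17569 and 17388 FPKM in the normal control and at 22694, 23301 and 21729 FPKM in the obese control. The groups were apart by more than their spread, with a log2 difference of 0.40 ± 0.04 (SE; limma adjusted p = 1.09e-06). ATP6, the proton channel subunit of ATP synthase, went from 11621 ± 730 to 15883 ± 739 FPKM (mean ± SD, n = 3; log2 difference 0.45 ± 0.07, adjusted p = 8.26e-05). ATP8, a small accessory subunit, had the largest difference among the mRNAs on this scale, 0.48 ± 0.12 (adjusted p = 0.00267), at 41.5, 56.8 and 50.1 against 66.2, 75.9 and 65.4 FPKM. COX3 and CYTB were each higher by 0.41 (adjusted p = 2.68e-05 and 3.07e-06), and ND1, ND2 and ND3 by 0.35, 0.37 and 0.34. Both rRNAs were called higher, AY172581.9 by 0.47 ± 0.05 and AY172581.24 by 0.37 ± 0.04.

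The subunits ND4, ND5 and ND6 moved least. ND6 stood at 1090, 1279 and 1118 FPKM in the normal control and 1159, 1257 and 1088 FPKM in the obese control, and ND4 at 518, 409 and 494 against 579, 467 and 469 FPKM. Both pairs of groups overlapped, with log2 differences of 0.01 ± 0.11 (adjusted p = 0.955) and 0.09 ± 0.19 (adjusted p = 0.71), and neither was called. ND5 stood at 1358, 1470 and 1430 against 1554, 1594 and 1493 FPKM, a difference of 0.12 ± 0.05 that barely passed (adjusted p = 0.0487) and ended under several alternatives, among them TPM (0.001), limma voom (0.08), no filter on low values and leaving out replicate 1 or 3 of the normal control or replicate 1 or 2 of the obese control (0.09 to 0.13). The calls of COX2 (0.23) and ND4L (0.26) also ended on the TPM scale (0.11 and 0.14), that of COX2 without replicate 1 of either group too (0.18 and 0.17). On the TPM scale the all-gene median shifted by -0.11, and the mRNA median relative to it was 0.33. With the recovered total as library size, 9 of 13 mRNAs were called higher, with a median of 0.30, beside 22.1% of all genes tested. The calls of COX2 (0.19, limma adjusted p = 0.0524) and ND5 (0.08) ended there. Quantile normalization left 3 of 13 mRNAs called higher, with a median of 0.07. Of all genes tested, 27.4% were called higher and 26.7% lower under it, so this mRNA count is near or below that share. The calls of COX1 (0.00), COX3 (0.13), ND1 (0.05), ND2 (0.08), ND3 (0.11), ND4L (0.06) and ND5 ended under quantile normalization, and ATP6 turned to -0.033. That method sets values by rank, so a gene that keeps its rank gets a difference of 0 whatever its level. Near the top of the ranks a gene can change only in steps of rank. The values of COX1 and ATP6 under it, here and below, therefore cannot speak against their calls.

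With orlistat the mitochondrial transcripts were lower than in the obese control. Of the 13 mRNAs, 13 were called lower, as were both rRNAs and 8 of 14 tRNAs, and 0 members were called higher (0 also by limma voom and at an unadjusted p under 0.05); 25.6% of all genes tested were called lower and 26.2% higher. The median mRNA difference was -0.58, from -0.80 for ND4 to -0.38 for ATP8. COX1 stood at 14606, 15282 and 14360 FPKM, a difference from the obese control of -0.61 ± 0.04 (limma adjusted p = 1.01e-08). ND5, which builds part of the proton-pumping arm of complex I, stood at 1016, 1044 and 919 FPKM (-0.64 ± 0.05, adjusted p = 4.4e-08), and COX2, which holds the site that accepts electrons from cytochrome c, at 735, 777 and 745 FPKM (-0.71 ± 0.08, adjusted p = 3.59e-06). For each of these the 3 orlistat libraries lay below the 3 of the obese control. The call of ATP8 ended on the TPM scale (-0.22) and without replicate 2 of the obese control (-0.31) or replicate 1 of the orlistat group (-0.30). On the TPM scale the all-gene median shifted by 0.14 here, and the mRNA median relative to it was -0.55. With the recovered total as library size the mRNA median was -0.49, and 13 of 13 mRNAs were called lower, beside 18.4% of all genes tested. Quantile normalization ended the calls of COX1 (0.00), ATP6 (-0.033) and ATP8 (-0.28).

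The low dose of plantain gave the smallest median difference from the obese control among the 4 treated groups. Of the 13 mRNAs, 8 were called lower, with both rRNAs and 3 of 14 tRNAs, and 0 members higher (0 also by limma voom and at an unadjusted p under 0.05), beside 14.8% of all genes tested called lower and 18.3% higher; by limma voom all 13 mRNAs were. The median mRNA difference was -0.25. COX1 stood at 17961, 19279 and 17981 FPKM (-0.29 ± 0.04, limma adjusted p = 6.48e-05) and COX2 at 935, 1004 and 865 FPKM (-0.40 ± 0.08, adjusted p = 0.00154), each below all 3 obese control libraries. CYTB (-0.12), COX3 (-0.13), ND2 (-0.18), ND6 (-0.25) and ND4 (-0.42) were not called. Among the 5 comparisons that involve the obese control, leaving out 1 library moved the count most here: the number of members called lower fell from 13 to 7 without replicate 2 of the obese control and to 8 without replicate 1 or 3 of the low dose, where the calls of ND1 (-0.22), ND4L (-0.22), ND5 (-0.16) and ATP8 (-0.37) ended, those of ND4L and ND5 also without replicate 1 of the obese control. The call of AY172581.24 (-0.12) ended on TPM (-0.08) and without replicate 1 of the obese control or replicate 1 or 2 of the low dose (-0.12 to -0.10), and that of ATP6 (-0.27) turned to 0.033 after quantile normalization, which also ended those of COX1 (0.00), ND1 (-0.07), ND3 (-0.19), ND4L (-0.20) and AY172581.24.

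At the medium dose, 12 of 13 mRNAs were called lower than in the obese control, with both rRNAs and 8 of 14 tRNAs, beside 20.1% of all genes tested (21.8% were called higher). No member was called higher by limma or limma voom, and 1 had an unadjusted p under 0.05. The median mRNA difference was -0.36. COX2 stood at 947, 747 and 760 FPKM (-0.60 ± 0.08, limma adjusted p = 3.1e-05) and COX3 at 9532, 8827 and 9249 FPKM (-0.44 ± 0.06, adjusted p = 2.35e-05), below every obese control library. ATP8 was the mRNA not called, at 73.0, 57.4 and 62.8 FPKM (-0.11 ± 0.12, adjusted p = 0.513), which overlapped the obese control. Replicate 1 was the highest of the 3 medium dose libraries for all 13 mRNAs. For ND3 it lay above the obese control, at 1931, 1358 and 1413 FPKM against 1842, 1826 and 1848 FPKM in the obese control. Quantile normalization ended the call of COX1 (0.00) here too. The call of ND3 (-0.25, limma adjusted p = 0.0469) ended under it (-0.11), under TPM (-0.15) and with the recovered total as library size (-0.19). That call also ended without replicate 1, 2 or 3 of the obese control or replicate 2 or 3 of the medium dose (-0.15 to -0.25). Those of ND6 (-0.33) and of the tRNA AY172581.18 (-0.34) ended without replicate 2 of the obese control or replicate 2 or 3 of the medium dose (-0.32 to -0.26 and -0.31 to -0.25).

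The high dose had the largest differences, and they reached every mRNA. Of the 13 mRNAs, 13 were called lower, with both rRNAs and 9 of 14 tRNAs, and 0 members higher (0 also by limma voom and at an unadjusted p under 0.05), beside 25.3% of all genes tested called lower and 26.6% called higher. The median mRNA difference was -1.05, from -1.45 for ND4 to -0.70 for CYTB, while that of all genes was 0.00. The complex I transcripts ND4 and ND3 and the minus-strand transcript ND6 differed most. ND4 stood at 579, 467 and 469 FPKM in the obese control and 172, 196 and 181 FPKM at the high dose (-1.45 ± 0.19, limma adjusted p = 1.26e-05). ND3 went from 1842, 1826 and 1848 to 730, 644 and 676 FPKM (-1.43 ± 0.09, adjusted p = 6.26e-09). ND6 went from 1159, 1257 and 1088 to 447, 461 and 480 FPKM (-1.33 ± 0.11, adjusted p = 4.63e-08). In each case every high dose library lay below the lowest library of any other group.

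COX2 (-1.26 ± 0.08), ND5 (-1.16 ± 0.05), ND4L (-1.13 ± 0.08) and ATP8 (-1.05 ± 0.12) followed. COX1, the most abundant, went from 22694, 23301 and 21729 to 12176, 12149 and 12575 FPKM, a difference of -0.88 ± 0.04 (limma adjusted p = 1.72e-10). CYTB, the only subunit of complex III in this genome, had the smallest difference, from 7991, 8396 and 7882 to 4981, 4970 and 5012 FPKM (-0.70 ± 0.05, adjusted p = 9.4e-09). Among the rRNAs, AY172581.9 fell by 1.22 and AY172581.24 fell by 0.86 on the log2 scale, from 132, 128 and 131 to 55.7, 53.4 and 56.9 FPKM and from 120, 116 and 116 to 67.6, 63.6 and 61.1 FPKM. On the TPM scale the all-gene median shifted by 0.15 here, and the mRNA median relative to it was -1.04. With the recovered total as library size the mRNA median was -0.98, and 13 of 13 mRNAs were called lower, beside 18.5% of all genes tested. After quantile normalization COX1 had a difference of 0.00, since that method gives an equal value to a gene that keeps its rank in every library.

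**Figure D3:**
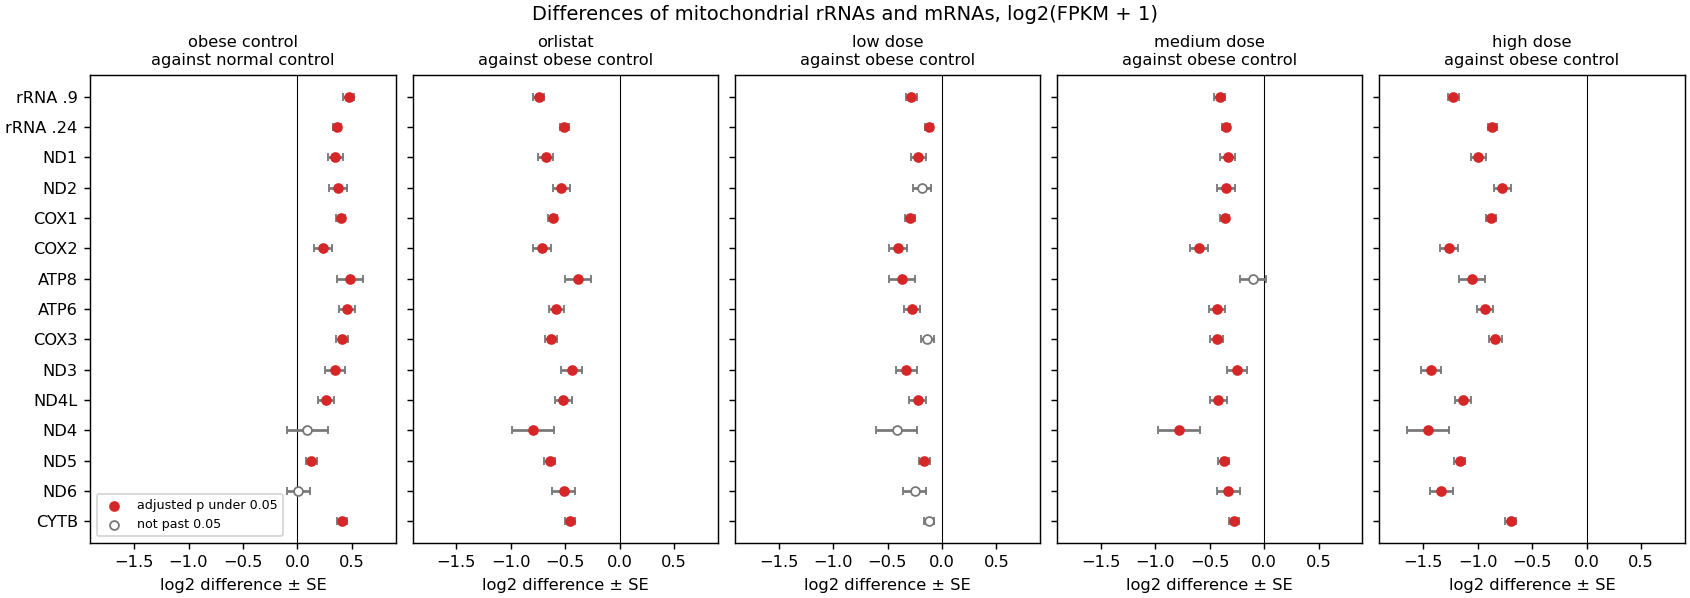
Log2 difference ± SE of each mitochondrial rRNA and mRNA on the log2(FPKM + 1) scale, in 5 panels, 1 per comparison; filled points have a limma adjusted p under 0.05 and the vertical line marks 0. The points lie right of 0 in the obese against the normal control and left of 0 in the 4 treated groups, furthest at the high dose, where they run from -1.45 to -0.70.

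Across the obese control and the 3 doses, 13 of 13 mRNAs, both rRNAs and 10 of 14 tRNAs were called in a falling trend with equal steps, and 0 members in a rising one (0 also by limma voom and at an unadjusted p under 0.05), beside 26.0% of all genes tested called as falling and 26.5% as rising. The slopes of the mRNAs ran from -0.23 for CYTB to -0.47 for ND4 on the log2 scale per step. A moderated F-test across the doses (limma) called all 13 mRNAs, both rRNAs and 5 of 14 tRNAs, beside 38.4% of all genes tested. These comparisons and those above share the obese control libraries, so they are not independent of each other.

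The treated groups were also set against the normal control, with which 8 of 13 mRNAs were called lower with orlistat (24.3% of all genes tested were called lower and 19.8% higher) and 13 of 13 at the high dose (22.9% lower, 19.5% higher). At the high dose the differences from the normal control ran from -1.36 for ND4 and -1.32 for ND6 to -0.29 for CYTB, so that high dose livers lay below livers of healthy animals for every mRNA. With orlistat, ND4 (-0.71), ND5 (-0.52), ND6 (-0.51) and COX2 (-0.48) differed most, and CYTB (-0.05) and ATP6 (-0.13) were not called. At the low dose 2 mRNAs were called higher, COX3 (0.27) and CYTB (0.29), with both rRNAs and 1 tRNA (22.8% of all genes tested were called higher and 25.0% lower), and 0 members lower by limma (3 at an unadjusted p under 0.05 and 5 by limma voom). At the medium dose 2 mRNAs were called higher, CYTB (0.13) and ATP8 (0.38), beside 21.1% of all genes tested, and 4 lower, COX2 (-0.37), ND4 (-0.69), ND5 (-0.25) and ND6 (-0.32), beside 24.2%. The mRNA counts at the low and medium dose are near or below the shares of all genes, so on their own they show little. Both higher calls at the medium dose ended without replicate 1 of the normal control or replicate 1 of the medium dose (0.09 and 0.09 for CYTB, 0.26 and 0.29 for ATP8), that of CYTB also without replicate 3 of the normal control (0.13), and quantile normalization turned CYTB to -0.13 there and to -0.010 at the low dose, where it also ended the call of COX3 (0.18). It ended those of COX1 with orlistat and at the high dose (0.00) and of COX3 with orlistat (-0.19). The lower call of ND6 at the medium dose ended without replicate 2 of the normal control or replicate 2 or 3 of the medium dose (-0.31 to -0.25), and that of ND4L with orlistat (-0.25) without replicate 2 of the normal control (-0.22).

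The order of the group means was much the same from gene to gene at its ends and less so in the middle. The obese control was the highest group and the high dose the lowest for all 15 mRNAs and rRNAs. For COX1, ND1, ND2, ATP6, CYTB and both rRNAs the order was obese control, low dose, medium dose, normal control, orlistat and high dose. Within that order the medium dose overlapped the normal control for all of these but CYTB, and the low dose overlapped the medium dose for all but CYTB and AY172581.24. The normal control overlapped orlistat for CYTB, ATP6 and ND2, and ND2 also overlapped between the obese control and the low dose. For COX2, ND4, ND5 and ND6 the normal control came directly after the obese control, and it overlapped the low dose for all 4 genes and the obese control for ND4 and ND6. ND3 and ATP8 had the medium dose in that place, overlapping the obese control.

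The makeup of the mitochondrial mRNA pool differed between groups as well as its size. Each mRNA was taken as a share of the summed FPKM of the 13, a sum of 80331 ± 2979 in the obese control, 61704 ± 3011 in the normal control, 53569 ± 3035 with orlistat, 68574 ± 4299, 61786 ± 4821 and 42950 ± 625 at the low, medium and high dose. At the high dose all 13 shares lay outside the range of the obese control, 4 above and 9 below. The level of a gene divided by the same sum did so for 88.9% of all genes tested, so the count on its own shows little. Of the tested genes other than the 13, 87.6% lay above and 1.35% below, on a scale that a lower sum raises by construction. The 4 higher shares were those of CYTB (11.6 ± 0.127% against 10.1 ± 0.111%), ND2 (7.34 ± 0.125% against 6.70 ± 0.118%), COX3 (16.2 ± 0.467% against 15.5 ± 0.116%) and COX1 (28.6 ± 0.191% against 28.1 ± 0.171%).

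As a ratio to the obese control, the lowest of the 9 other shares were those of ND4 (0.677), ND3 (0.695) and ND6 (0.741). The larger shares of ND4L and ND1 went from 4.11 to 3.50% and from 7.82 to 7.34%, more in percentage points than those of ND4 and ND6. ND3 made up 2.30, 2.19 and 2.39% in the obese control and 1.72, 1.51 and 1.55% at the high dose, and ND6 1.45 ± 0.0517% against 1.08 ± 0.0235%. ND4 made up 0.629 ± 0.0838% against 0.426 ± 0.0292%. The complex I transcripts did not move as one: ND2 gained share while ND3, ND4 and ND6 lost it. ND2 was 0.857 ± 0.00402 times ND1 in the obese control and 1.00 ± 0.0105 times ND1 at the high dose.

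In the normal control, 3 shares lay above the range of the obese control and 1 below (69.3% of all genes tested did not overlap on this scale). ND6 held 1.86, 1.98 and 1.80% of the pool there, ND5 2.32, 2.28 and 2.31% against 1.94, 1.91 and 1.93%, and ND4L 4.46 ± 0.0832% against 4.11 ± 0.0771%; the share of ATP6 was lower. The ratio of ND6 to CYTB, its neighbour on the other strand, was 0.190 ± 0.00768 in the normal control, 0.144 ± 0.00589 in the obese control and 0.0927 ± 0.00303 at the high dose, with no overlap among these 3 groups. With orlistat 2 shares were higher and 3 lower (79.2% of all genes), at the low dose 3 and 2 (54.2%), and at the medium dose 2 and 3 (66.2%). CYTB was above the obese control range in all 4 treated groups. No test was made on these shares, which sum to a fixed total.

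**Figure D4:**
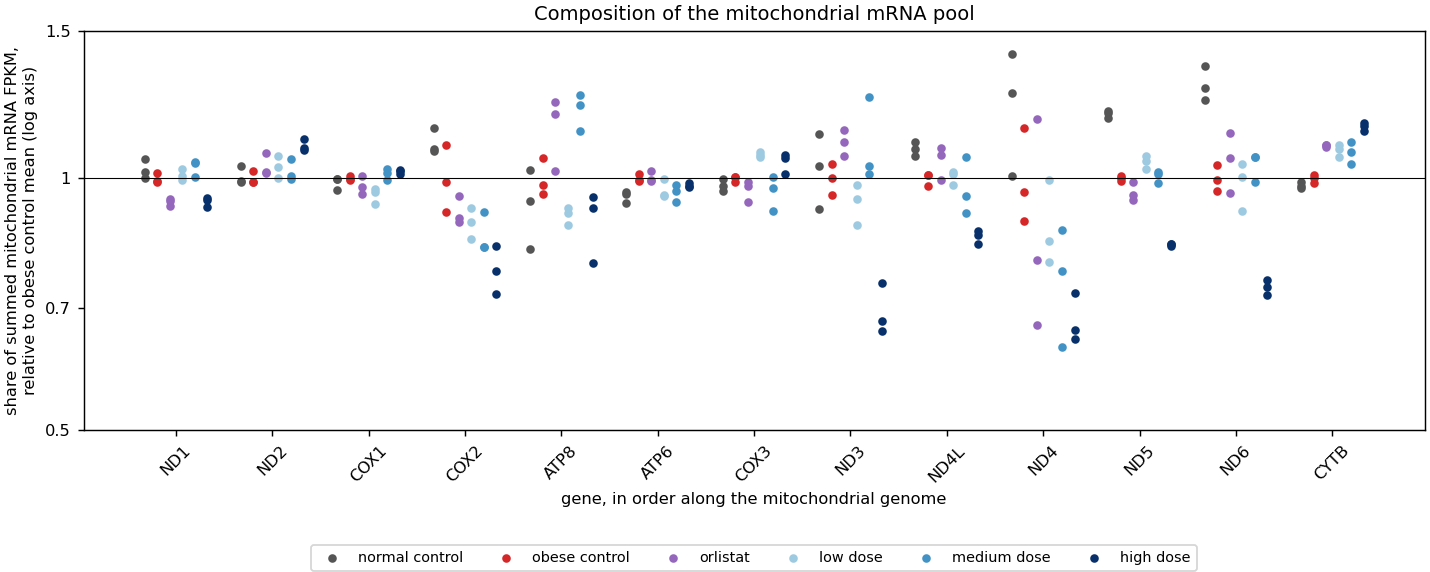
Share of each mitochondrial mRNA in the summed FPKM of the 13, divided by the mean share in the obese control (log axis), with genes in genome order and 1 point per library coloured by group. Among the high dose means those of ND3, ND4 and ND6 are the lowest, at 0.695, 0.677 and 0.741, while that of CYTB is 1.15; for ND4, 1 medium dose and 1 orlistat point lie as low. The normal control mean of ND6 is 1.30.

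Among tRNAs with at least 10 reads in every library, AY172581.2 was the most abundant. It stood at 506, 480 and 444 FPKM in the normal control, 663, 645 and 639 FPKM in the obese control, 256, 263 and 272 FPKM with orlistat, and 177, 202 and 219 FPKM at the high dose. Relative to the obese control, the differences were -1.30 ± 0.07 with orlistat and -1.70 ± 0.07 at the high dose (limma adjusted p = 3.25e-10 and 1.65e-11), with -0.53 at the low and -0.90 at the medium dose. AY172581.20, AY172581.7, AY172581.18 and AY172581.10 were also called lower with orlistat (-1.42, -1.54, -0.49 and -0.90), at the medium dose (-1.04, -0.83, -0.34 and -0.47) and at the high dose (-1.22, -1.23, -0.96 and -0.55). At the low dose none of these 4 was called. AY172581.20 was not called in the obese against the normal control (-0.05 ± 0.14, limma adjusted p = 0.781). Neither was its neighbour ND6, nor ND4 on the plus strand. The tRNA share of the library with orlistat was 0.494 times that of the obese control, against 0.706 times for the mRNAs.

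Among the tRNA genes with few reads, AY172581.15 stood out and was singled out after its values were seen. AY172581.15, a plus-strand gene at 3835 to 3903 directly before ND2, had 8, 11 and 5 reads in the obese control. It had 0, 1 and 0 reads in the normal control, 1, 1 and 0 at the high dose, and 0 in each of the 9 libraries of the orlistat, low dose and medium dose groups. It reached 1 FPKM in the 3 obese control libraries alone, so it passed the filter through the group where it was high; its differences are given as a description, with no test, and its calls are part of the tRNA counts above. For a ratio, 3 reads were put in place of 0 over a group, and the 24 reads of the obese control were taken as exact. On that reckoning its level in the obese control was 7.26 times that with orlistat, 8.44 times that at the low dose and 7.74 times that at the medium dose. These ratios are not lower bounds, since the spread of the 24 reads and the choice of the gene are not counted in. The neighbouring tRNA genes AY172581.21 and AY172581.6 did not share it, with 0 and 3 reads in the obese control.

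The calls of the other sparse tRNA genes rest on a handful of reads, and AY172581.11 and AY172581.6 also passed the filter only with the group where they were high. AY172581.12 had 1, 4 and 4 reads in the obese control and 0, 0 and 2 in the normal control, AY172581.11 had 2, 1 and 2 in the obese control and 0 with orlistat, and AY172581.5 had 3, 6 and 5 in the obese control, 1, 0 and 0 with orlistat and 0, 0 and 1 at the medium dose. AY172581.6 had 5, 1 and 4 reads in the normal control and 0 at the medium dose, and AY172581.16 had 19, 30 and 11 in the obese control and 0, 6 and 10 at the high dose. The calls of AY172581.12 in the obese against the normal control, at the low dose and at the high dose ended without replicate 2 or 3 of the obese control or without replicates of the other group with no read. That of AY172581.11 at the high dose ended without replicate 1 or 3 of the obese control or replicate 1 or 2 of the high dose. Against the normal control, the call of AY172581.5 at the medium dose ended with the replicate number as a block (limma adjusted p = 0.065) and without any 1 of the 3 normal control libraries or replicate 1 or 2 of the medium dose, that of AY172581.7 there without replicate 1 or 2 of either group, that of AY172581.11 with orlistat without replicate 2 of the normal control or any 1 orlistat library, and that of AY172581.6 with orlistat without replicate 1 or 3 of the orlistat group.

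Nuclear genes for the other subunits of these complexes were examined as lists. In the obese against the normal control, 16 of 27 tested complex I genes were called higher and 2 lower, 6 and 2 of 10 for complex III, and 7 and 1 of 13 for complex V; for complex IV, 8 of 11 were called and each was higher. Of all genes tested, 26.7% were called higher and 28.4% lower there. At the high dose, relative to the obese control, 2 complex I genes were called higher and 19 lower, 2 and 6 for complex III and 1 and 7 for complex V, while for complex IV 7 were called and each was lower (26.6% and 25.3% of all genes). With orlistat 1 complex I gene was called higher and 19 lower, and 1 and 7 for complex III; the 6 called for complex IV and the 8 for complex V were lower (26.2% and 25.6% of all genes). These splits depend on the scale. On TPM, the obese against the normal control gave 13 higher and 4 lower for complex I, 4 and 4 for complex III, 5 and 1 for complex IV and 4 and 4 for complex V, where 16.5% of all genes were called higher and 38.3% lower. The high dose gave 5 higher and 10 lower, 3 and 3, 2 and 4, and 4 and 4 on that scale (all genes 43.3% and 12.4%), and orlistat 5 and 13, 2 and 4, 2 and 5, and 4 and 6 (all genes 41.8% and 13.1%). At the high dose the median difference of the complex I genes was -0.25, against -1.05 for the 13 mitochondrial mRNAs.

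Ndufa13, a complex I subunit, stood at 123 ± 5.19 FPKM in the normal control, 180 ± 6.37 in the obese control and 126 ± 3.46 at the high dose (-0.51 between the last 2, limma adjusted p = 3.16e-08). Cox4i1 of complex IV went from 393 ± 5.95 to 507 ± 13.9 and 408 ± 9.83 FPKM in the same groups (0.37 and -0.31). Atp5f1e of complex V went from 263 ± 3.87 to 364 ± 9.84 and 238 ± 8.11 FPKM (0.47 and -0.61). These 3 shared with the mitochondrial mRNAs that the obese control was the highest group. For Uqcrc2, a core subunit of complex III, it was the lowest, at 69.7 ± 2.26, 48.1 ± 1.41 and 68.8 ± 0.346 FPKM (-0.53 and 0.51). Of the 4 genes of complex II, whose subunits are all nuclear, Sdha, Sdhb and Sdhd were called lower in the obese against the normal control (-0.38, -0.16 and -0.077). Its flavoprotein subunit Sdha stood at 133 ± 1.51, 102 ± 1.91 and 126 ± 2.84 FPKM. At the high dose Sdha was called higher (0.31), and Sdhb (-0.04), Sdhc (0.0048) and Sdhd (-0.04) were not called; with orlistat Sdha was higher (0.29) and Sdhb lower (-0.18, limma adjusted p = 4.25e-05).

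The factors that make, process and keep mitochondrial RNA did not move as one. Of 16 tested genes of mitochondrial DNA transcription and packaging, 3 were called higher and 1 lower in the obese against the normal control, and 1 and 3 at the high dose relative to the obese control. These counts lie below the shares of all genes tested (26.7% higher and 28.4% lower, then 26.6% and 25.3%). Tfam, which packages the genome and starts its transcription, stood at 22.0 ± 0.743 FPKM for the normal control, 22.9 ± 0.657 for the obese control, 20.4 ± 0.305 for orlistat and 22.2 ± 0.679 for the high dose. It was called with orlistat alone among the 4 treated groups (-0.16, limma adjusted p = 0.00728), where TPM gave 0.0050; on TPM it was called higher at the high dose (0.13). Polrmt, the mitochondrial RNA polymerase, was called in the direction opposite to the mRNAs in the obese control (-0.17) and at the medium and high dose (0.24 and 0.16). Polg, the DNA polymerase of mitochondria, was higher in the obese control, at 26.5 ± 0.786 against 15.7 ± 0.209 FPKM.

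Of 19 tested genes of mitochondrial RNA processing, stability and decay, 1 was called higher and 10 lower in the obese against the normal control, and 5 and 2 at the high dose relative to the obese control (11 higher and none lower on TPM). Of all genes tested, 26.7% were called higher and 28.4% lower in the obese against the normal control, 26.6% and 25.3% at the high dose, and 43.3% and 12.4% there on TPM, so the high dose counts on the first scale are near or below the background. Lrpprc, which binds and stabilises mitochondrial mRNAs, stood at 31.5, 32.2 and 32.0 FPKM in the normal control and 24.2, 23.6 and 24.5 FPKM in the obese control (-0.39 ± 0.02, limma adjusted p = 6.72e-10). It stood at 32.5, 31.8 and 33.0 FPKM with orlistat, 30.0, 30.0 and 30.6 at the low dose, 29.4, 29.5 and 28.9 at the medium dose and 32.4, 31.5 and 32.2 at the high dose. The obese control was thus the lowest group for Lrpprc with no overlap with any other, and the differences of the 4 treated groups from it were 0.41, 0.31, 0.27 and 0.40. Grsf1, a protein of mitochondrial RNA granules, also had the obese control as its lowest group. It stood at 26.9 ± 0.0694 FPKM in the normal control, 20.4 ± 0.526 in the obese control and 26.4 ± 0.307 at the high dose (-0.39 and 0.36). Its difference from the obese control was 0.14 at the low dose and 0.32 at the medium dose, the reverse of the order of Lrpprc. Slirp, the partner of Lrpprc, went the other way with orlistat (-0.35, limma adjusted p = 0.00275) and at the high dose (-0.27, adjusted p = 0.0153). The call at the high dose ended on TPM (-0.14). At the low and medium dose Slirp was not called (-0.11 and -0.17).

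**Figure D5:**
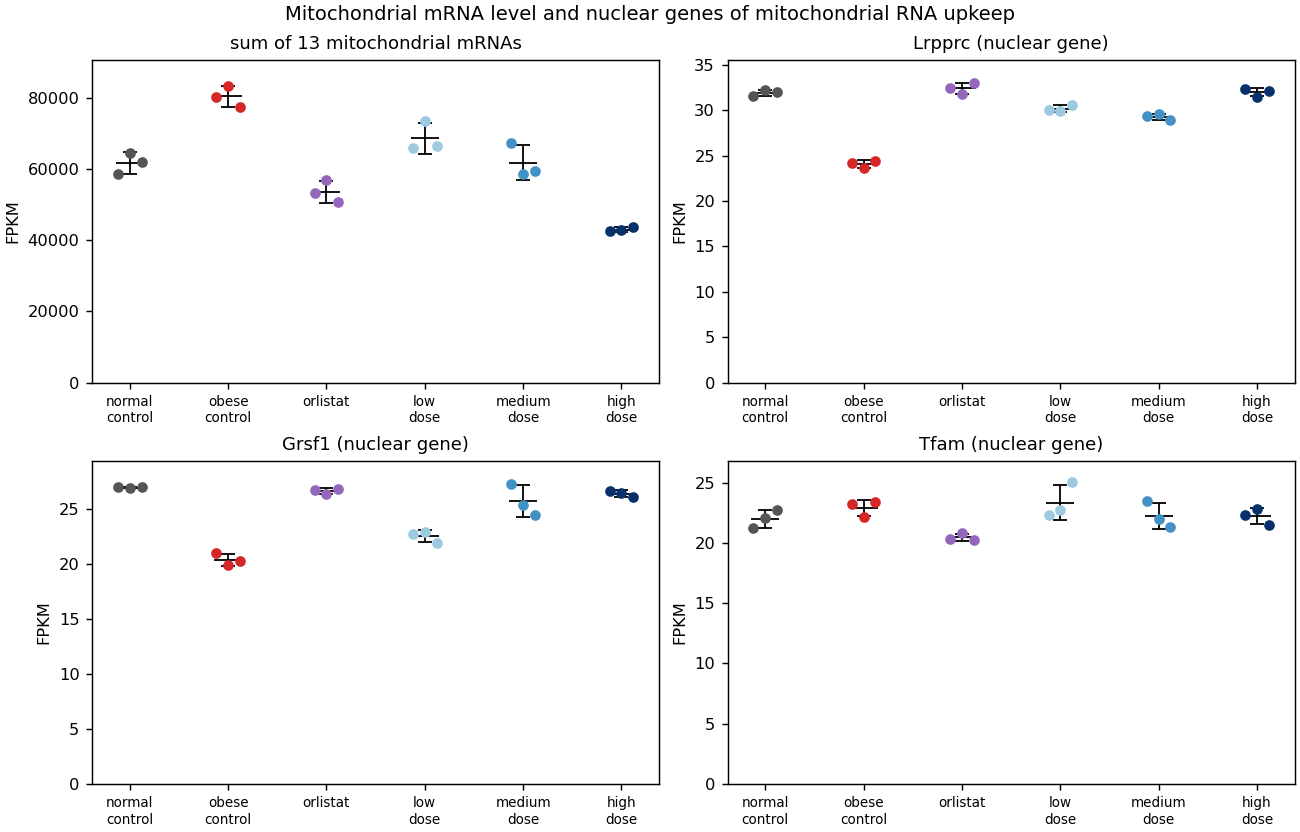
Summed FPKM of the 13 mitochondrial mRNAs and FPKM of the nuclear genes Lrpprc, Grsf1 and Tfam, by group; points are libraries and bars the mean ± SD of 3. The obese control is the highest group for the mitochondrial sum (80331) and the lowest for Lrpprc (24.1) and Grsf1 (20.4), while the Tfam means lie between 20.4 and 23.3.

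Genes for regulators of mitochondrial number were next. Of 10 tested, 6 were called lower and 1 higher against the normal control, and 6 higher and 1 lower at the high dose relative to the obese control, beside 28.4% lower and 26.7% higher of all genes in the first and 26.6% higher and 25.3% lower in the second. Ppara, the nuclear receptor for fatty acids that drives their oxidation, stood at 30.0 ± 1.03 FPKM in the normal control, 16.0 ± 0.679 in the obese control and 26.1 ± 1.90 at the high dose (-0.87 and 0.67). The coactivator Ppargc1a was also lower in the obese control (-0.80, limma adjusted p = 5.53e-06). Of 9 tested genes of mitophagy and mitochondrial shape, 5 were called lower and 1 higher in the obese against the normal control, led by Bnip3 at 65.2 ± 1.05 against 38.6 ± 0.925 FPKM (-0.74), and 6 higher and 1 lower at the high dose. Of all genes, 28.4% were called lower and 26.7% higher in the first and 26.6% higher and 25.3% lower in the second. The 5 lower and the 6 higher lie above those shares. Of 24 tested genes of mitochondrial tRNA modification and charging, 4 were called higher and 7 lower in the obese against the normal control and 4 and 1 at the high dose. The counts of this last list are near or below the same shares of all genes.

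Markers of some other liver cells differed between the groups. The summed level of the 8 liver endothelial genes was 50.8 to 52.3 FPKM in the normal control, 69.0 to 69.6 in the obese control and 118 to 120 at the high dose, with 100 to 107 in the 3 other groups. The 10 Kupffer cell and macrophage genes summed to 182 to 184 FPKM in the normal control, 307 to 317 in the obese control, 320 to 340 with orlistat, and 389 to 401, 254 to 261 and 259 to 262 at the low, medium and high dose. The 5 red blood cell genes summed to 848 to 896 FPKM in the normal control, 1364 to 1654 in the obese control, 1086 to 1455 with orlistat, and 935 to 1142, 1115 to 1369 and 1044 to 1283 at the 3 doses. The 8 stellate cell genes summed to 61.0 to 63.2 FPKM in the obese control, 67.7 to 67.8 with orlistat and 48.0 to 57.4 in the other groups. Over all libraries the 5 bile duct genes summed to 7.37 to 9.89 FPKM and the 6 lymphocyte genes to 4.66 to 7.17 FPKM. The hepatocyte sum was 85207 to 90640 FPKM in the normal control and 79499 to 85234 with orlistat. It was 96594 to 98880 FPKM in the obese control and 88363 to 88659 at the high dose, where the summed mitochondrial mRNAs were 80331 and 42950 FPKM on average. The immediate early genes, a sign of tissue handling, summed to 292 to 296 FPKM in the normal control, 246 to 249 in the obese control, 231 to 240 with orlistat, and 319 to 327, 227 to 230 and 212 to 224 at the 3 doses. The part of these cells and genes in the mitochondrial results was not tested.

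By rank correlation over the 18 libraries with the summed mitochondrial mRNA level, the nuclear genes most like it were Rida (Spearman's rho 0.99), Tmsb4x (0.98), Afm (0.97), Mgst1 (0.96) and Calr (0.96). The libraries share their group and their scaling factor, and no test was made. Rida, an enzyme that clears reactive imines, had means of 1564 FPKM for the normal control, 1864 for the obese control, 1478 for orlistat and 1399 for the high dose. Tmsb4x, an actin-binding peptide, had means of 369, 507, 334 and 315 FPKM in the same groups. Afm is a vitamin E carrier made by hepatocytes, Mgst1 a glutathione transferase of the endoplasmic reticulum and outer mitochondrial membrane, and Calr a chaperone of the endoplasmic reticulum.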

How the data were processed

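The authors deposited 1 table of FPKM for 33657 genes and 18 liver libraries of 3 per group; per the file headers each gene has a length, type and coordinates. Per the labels' protocols, 1 µg of RNA per sample went into Illumina libraries. CASAVA 1.7, Bowtie 0.12.2 and mm8, a mouse build, are named in the submitters' processing notes, while the genes have rat Ensembl identifiers; rat build, annotation and strand setting: not given in the sources used here. FPKM times gene length gave whole reads for 100% of values (tolerance 0.001), from which shares were computed. The count test run on these reads was limma voom.

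The 11945 genes reaching 1 FPKM in 3 or more libraries were put on the log2(FPKM + 1) scale and fitted with limma 3.58.1 (R 4.3.3), 6 groups in 1 fit with a mean-variance trend, two-sided, with Benjamini-Hochberg adjustment over all genes tested and a threshold of 0.05. The pseudocount of 1 makes the differences of sparse tRNAs smaller than those of their reads. The fit was also run on simulated data, with genes changed at the high dose alone and no further factor per library. Far fewer genes were changed there than were called here, so that check does not extend to these calls. Shares were compared by exact permutation tests of the 9 pairs of groups and of the trend.

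Every mitochondrial mRNA and rRNA was named, with each tRNA that had at least 10 reads in every library or passed the threshold, the up to 3 genes with the smallest p per pathway list and comparison, with transcription and stability factors added after their values were seen, and the 5 genes most like the summed mRNA. The members and lists were chosen with earlier results of these data known. Alternatives were the pseudocount, filters, scaling, limma voom, a replicate block and leaving out libraries; recomputing FPKM with the recovered total as library size was chosen after seeing the data. No nucleotide sequence of the mitochondrial genome was used here.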

Additional observations from a re-analysis of the deposited data

How the results depend on the processing

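Over the 150 differences of single members past the threshold, 2068 of 2214 alternative values kept direction and call, 142 kept direction without the call and 4 reversed, all after quantile normalization: ATP6 in the obese against the normal control (-0.033) and for the low dose against the obese control (0.033), and CYTB at the low dose (-0.010) and medium dose (-0.13), both against the normal control. Quantile normalization gave 9 members higher in the obese control (17 otherwise) and 3 higher at the low dose against the normal control (5 otherwise). Of all genes tested, it called 27.4% higher in the first and 23.3% in the second. At the low dose against the normal control, members called lower numbered 0, but 4 with TPM, 3 with quantile normalization, 2 with equal non-mitochondrial reads, 5 with limma voom and 3 with the recovered total. Of all genes tested, these settings in turn called 33, 23.5, 28.7, 31 and 29.3% lower, so the member counts lie below those shares. At the medium dose against the normal control, members called higher numbered 2, but 1 with no filter and 1 with quantile normalization. Those settings called 11.7% and 22.5% of all genes tested higher. The causes were not tested.

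As a share of the summed FPKM, the differences were 2.20 points for the obese against the normal control, -3.42, -1.65, -2.46 and -5.36 for orlistat and the low, medium and high dose against the obese control, and -1.22, -0.258 (reversed) and -3.16 for orlistat, the medium and the high dose against the normal control. The low dose differed from the normal control by 0.556 points on that scale and overlapped it (exact two-sided permutation p = 0.4), where the shares of reads did not overlap. As a share of reads other than albumin, the obese control comparisons gave -2.82 (orlistat) and -3.98 (high dose), and the high dose differed from the normal control by -2.07. The medium dose against the normal control also reversed without replicate 1 of the normal control (-0.0448) and without replicate 1 of the medium dose (-0.132).

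Leaving out 1 library gave, against the obese control, 21 to 23 members lower with orlistat and 7 to 15 at the low dose. It gave 18 to 22 lower at the medium dose and 21 to 24 at the high dose, with 0 higher in each. Of all genes tested, 22.8 to 23.3, 12.4 to 12.9, 17.3 to 19 and 22.6 to 23.2% were lower in the same order. In the obese against the normal control 14 to 16 members were higher and 0 to 1 lower, beside 23.9 to 24.4% of all genes called higher. In the trend 21 to 25 members were falling and 0 rising, beside 23.5 to 26.1% of all genes called falling. Between doses, 20 to 22 members were unequal. Against the normal control, leaving out 1 library gave 14 to 16 members lower and 0 higher with orlistat, and 5 to 7 higher and 0 to 1 lower at the low dose. It gave 0 to 3 higher and 6 to 8 lower at the medium dose, and 19 to 21 lower and 0 to 1 higher at the high dose. Of all genes tested, 21 to 21.9% were lower with orlistat and 20.4 to 20.9% higher at the low dose. The medium dose had 18.5 to 19.2% higher and 21.5 to 22.8% lower, and the high dose 19.7 to 20.6% lower. The share differences then ran from 1.53 to 1.79 points for the obese against the normal control, -2.51 to -2.25 for orlistat, -1.38 to -1.06, -1.80 to -1.45 and -3.60 to -3.34 for the low, medium and high dose against the obese control, and -0.842 to -0.604, 0.286 to 0.578, -0.132 to 0.211 and -1.93 to -1.71 for orlistat and the 3 doses against the normal control.

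Replicate numbers did not pair the libraries: same-numbered libraries of compared groups had correlations of -0.0925 to 0.0663 over 27 pairs, and 4 of 18 libraries correlated best with their own number. With the replicate number as a block, 1 member was called higher at the medium dose against the obese control and 1 lower at the low dose against the normal control, where the fit without it had 0, and the call of AY172581.5 at the medium dose against the normal control ended (limma adjusted p = 0.065). It ended no other call of a single member. Depth limits the tRNAs most, since 13 of 22 never reached 10 reads in a library.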
